A study of Mus musculus with 12 samples.

Results

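The calcineurin-dependent NFAT factors and the proteins that switch them were followed across blood-forming stem and progenitor cells of mice with and without NFAT5. The members were chosen by gene symbol. They are the transcription factors Nfatc1, Nfatc2, Nfatc3 and Nfatc4, the calcineurin catalytic subunits Ppp3ca, Ppp3cb and Ppp3cc, the regulatory subunit Ppp3r1, and the calcineurin regulators Rcan1 and Rcan3. Of these 10 genes, 9 had a named probe set, 1 each, among the 19494 genes measured, and Rcan3 was not analysed here. All 9 lay above the filter on low values and were among the 14620 genes tested.

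The arrays fall into 4 groups of 3. KO HSC were haematopoietic stem cells (CD48-negative, CD150-positive) of Nfat5 fl/fl Vav-Cre mice, and WT HSC were the same cells of Nfat5 +/+ Vav-Cre mice. KO MPP and WT MPP were multipotent progenitors (CD48-positive, CD150-negative) of the same animals. All cells were sorted by flow cytometry from the lineage-negative, Sca-1-positive, Kit-positive (LSK) bone marrow of untreated mice, and each of 3 KO mice (2, 11 and 70) and 3 WT mice (3, 12 and 64) gave 1 HSC and 1 MPP array. Both genotypes carry Vav-Cre, which acts throughout the blood system, so the deletion was not limited to these populations. No source used here gave the animals' age. Values are log2 intensities that the authors normalized with RMA (robust multi-array average), so 1 unit is a doubling of signal.

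Calcineurin is a phosphatase of a catalytic A subunit and a regulatory B subunit that is turned on by calcium and calmodulin. It removes phosphates from NFATc1 to NFATc4, which then enter the nucleus, and kinases such as GSK3 and DYRK send them out again. NFAT5 shares their Rel-type DNA-binding domain but lacks the calcineurin-docking region and answers to tonicity instead. In lymphocytes the calcineurin pathway is known for cytokine induction and as the target of cyclosporin A and FK506. RCAN1 binds and restrains calcineurin, and its shorter transcript starts at an internal promoter that NFAT induces.

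The promoters of 3 members are shown because Rcan1 is the pathway's own feedback gene and because Nfatc3 and Ppp3cb were the pair of members with the highest correlation over arrays, given further on. RefSeq (GRCm38.p6) entries were at hand for 7 of the 10 genes, and the windows below are the 250 bases before the start, 5′ to 3′ on the gene's strand. Capitals mark GGAAA, the core that NFAT proteins bind, or its reverse complement TTTCC. Both strands were searched, and 55.6% of 32851 promoters of that length hold at least 1 copy.
Rcan1 upstream promoter, chr16:92466170-92466419, minus strand: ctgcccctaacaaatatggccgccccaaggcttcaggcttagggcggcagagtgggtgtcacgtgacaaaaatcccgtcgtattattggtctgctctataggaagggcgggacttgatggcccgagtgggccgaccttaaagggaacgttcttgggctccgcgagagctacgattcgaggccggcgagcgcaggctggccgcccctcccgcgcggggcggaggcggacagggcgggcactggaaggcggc
Rcan1 downstream promoter, chr16:92400079-92400328, minus strand: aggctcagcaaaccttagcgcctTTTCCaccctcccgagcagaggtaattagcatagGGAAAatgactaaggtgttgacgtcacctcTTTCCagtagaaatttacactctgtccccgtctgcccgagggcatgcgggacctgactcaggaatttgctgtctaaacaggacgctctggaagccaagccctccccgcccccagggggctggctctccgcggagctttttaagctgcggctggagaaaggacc
Nfatc3, chr8:106058568-106058817, plus strand: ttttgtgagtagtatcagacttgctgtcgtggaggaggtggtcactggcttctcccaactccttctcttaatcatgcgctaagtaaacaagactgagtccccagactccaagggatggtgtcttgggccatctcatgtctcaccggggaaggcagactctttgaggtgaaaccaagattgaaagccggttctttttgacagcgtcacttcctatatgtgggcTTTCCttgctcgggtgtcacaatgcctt
Ppp3cb, chr14:20546574-20546823, minus strand: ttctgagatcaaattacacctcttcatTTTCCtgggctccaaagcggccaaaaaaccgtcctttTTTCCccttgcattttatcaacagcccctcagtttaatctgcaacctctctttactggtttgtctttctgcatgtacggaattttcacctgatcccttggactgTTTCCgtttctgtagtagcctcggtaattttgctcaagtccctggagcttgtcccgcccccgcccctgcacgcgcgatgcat
The downstream Rcan1 promoter holds 3 copies, a number that 6.39% of promoters reach, and the upstream one holds none in this window. Of the 3 copies, 2 extend to TGGAAA or TTTCCA, the longer core that overlaps GGAAA and begins the tonicity element of NFAT5, a count reached by 2.28% of promoters. The Ppp3cb window holds 3 copies of GGAAA and no TGGAAA, and the Nfatc3 window shown holds 1 and none. A second Nfatc3 entry, chr8:106059340-106059589, holds no GGAAA and is not printed. These are matches of letters and say nothing of binding. The Rcan1 probe set is annotated to 2 RefSeq transcripts together, so its signal does not separate them.

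Nfat5 itself, the deleted gene, read 7.85, 7.34 and 7.89 in HSC of KO mice 2, 11 and 70, against 8.54, 8.27 and 8.99 in HSC of WT mice 3, 12 and 64. In MPP it read 6.99, 7.45 and 7.04 in KO, against 7.82, 8.28 and 7.98 in WT. Every KO array lay below every WT array of its population, at 53.1% of the WT signal in HSC and 54.8% in MPP. By an exact permutation test (two-sided) p was 0.1 in either population, the smallest that 3 against 3 allows. The sources used here do not place the probes relative to the deletion. Array medians lay between 5.81 and 5.91, and KO mouse 2 had the most deviant HSC array (SD of deviations from the group mean 0.438, where the other 11 arrays spanned 0.276 to 0.378). Sort markers followed the labels, with means of HSC markers of 8.63 to 9.48 on HSC and 7.55 to 8.07 on MPP arrays, and means of MPP markers of 7.74 to 8.27 on KO and 7.56 to 7.66 on WT HSC arrays, and of 9.57 to 9.83 on MPP arrays.

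**Figure D1:**
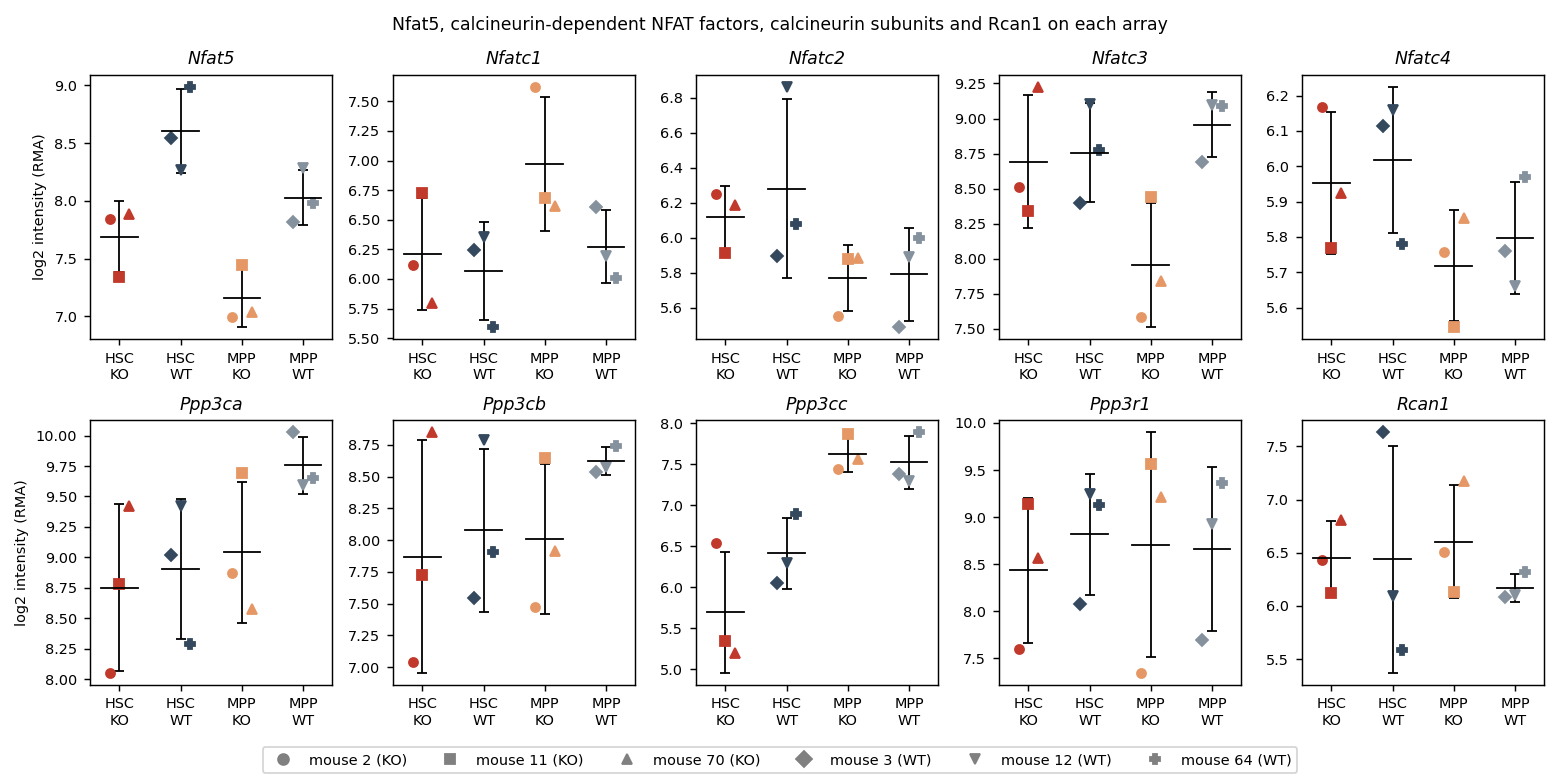
Log2 intensity of Nfat5 and of the 9 members on each of the 12 arrays, by group, with symbols for the mouse, a bar for the group mean and whiskers for the SD (n = 3), on an axis of its own for each gene. Ppp3cc lies between 5.20 and 6.89 on HSC arrays and between 7.29 and 7.89 on MPP arrays, and Nfatc3 lies between 7.58 and 8.44 on KO MPP arrays and between 8.69 and 9.09 on WT MPP arrays.

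The comparison of KO with WT asked whether the calcineurin branch of the NFAT family shifts when NFAT5 is lost. No member passed the test in KO HSC or KO MPP, and the lowest adjusted p was 0.806 in HSC and 0.9999 in MPP by limma. No gene of the array passed either (0% of 14620 called in each population), and 6.29% in HSC and 3.19% in MPP had an unadjusted p under 0.05, as did 0 and 1 of the 9 members. Groups without overlap in HSC were found for 0 of 9 members and 8.87% of all genes. The members' median difference was -0.15 in HSC, against 0.02 over all genes, with 2 of 9 above 0. In MPP it was -0.02, against 0.00 over all genes, with 4 of 9 above 0. Standard errors ran from 0.17 for Nfatc4 to 0.64 for Ppp3r1, so the signal of Nfatc4 had far narrower intervals than that of Ppp3r1. The group means of Nfatc4, 5.72 to 6.02, lay near the array medians of 5.81 to 5.91. How far its signal follows the transcript at that level was not tested, so a narrow interval need not bound a change of the transcript.

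Among the transcription factors, Nfatc3 stood furthest from 0. It is widely expressed and known for its role in thymocytes. In MPP it read 7.58, 8.44 and 7.84 in KO mice 2, 11 and 70, against 8.69, 9.09 and 9.09 in WT mice 3, 12 and 64. All 3 KO arrays lay below all 3 WT arrays, KO mouse 11 being closest to them. The log2 difference was -1.002 (SE 0.29, 95% interval -1.65 to -0.36), which puts the KO signal at 49.9% of WT, with an adjusted p of 0.9999 by limma. When a mouse was left out it ranged from -1.25 to -0.82. In HSC the groups overlapped, with 8.51, 8.34 and 9.23 in KO, against 8.40, 9.10 and 8.77 in WT, a difference of -0.06 (SE 0.29, 95% interval -0.71 to 0.58). Nfatc3 lies on chromosome 8, as does Nfat5, with 21 protein-coding genes between them in GRCm38.p6.

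Nfatc1, known for lymphocyte activation, osteoclast formation and heart valve development, lay on the other side of 0. In MPP it read 7.62, 6.68 and 6.61 in KO mice 2, 11 and 70, against 6.61, 6.20 and 6.01 in WT mice 3, 12 and 64. The groups touched without overlapping, the lowest KO array (6.614) standing next to the highest WT array (6.610), and KO mouse 2 stood apart. The difference was 0.70 (SE 0.33, 95% interval -0.04 to 1.44) and 0.38 without mouse 2. Nfatc3 and Nfatc1 were the 2 of 9 members whose MPP groups did not overlap, as was so for 9.49% of all genes tested. In HSC Nfatc1 read 5.80 to 6.73 in KO and 5.60 to 6.36 in WT, a difference of 0.15 (95% interval -0.59 to 0.89).

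Nfatc2, the main NFAT of resting T cells, read 5.91 to 6.25 in KO and 5.899 to 6.86 in WT HSC, and 5.55 to 5.88 in KO and 5.49 to 5.998 in WT MPP. The intervals of its difference ran from -0.71 to 0.38 in HSC and from -0.57 to 0.53 in MPP. Nfatc4, known mainly from brain and heart, read 5.77 to 6.17 in KO and 5.78 to 6.16 in WT HSC, and 5.55 to 5.85 in KO and 5.66 to 5.97 in WT MPP. Its intervals, -0.44 to 0.31 in HSC and -0.45 to 0.29 in MPP, were the narrowest of the family. The KO and WT values of both genes overlapped in both populations.

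Of the catalytic subunits, Ppp3ca and Ppp3cb make the alpha and beta forms found in most tissues, beta being the main form of lymphocytes in mice. Ppp3ca read 8.87, 9.69 and 8.57 in MPP of KO mice 2, 11 and 70, against 10.03, 9.60 and 9.65 in WT mice 3, 12 and 64. Ppp3cb read 7.47, 8.64 and 7.91 in the same KO mice, against 8.54, 8.58 and 8.74 in WT. For both genes KO mice 2 and 70 lay below every WT array and KO mouse 11 lay within the WT range. The differences were -0.71 (SE 0.40, 95% interval -1.59 to 0.17) for Ppp3ca and -0.61 (SE 0.46, 95% interval -1.62 to 0.40) for Ppp3cb. In HSC Ppp3ca spread from 8.05 to 9.42 in KO and 8.29 to 9.42 in WT, and Ppp3cb from 7.04 to 8.85 in KO and 7.54 to 8.79 in WT. These HSC differences, -0.15 and -0.21, became 0.19 and 0.21 without the HSC array of KO mouse 2, so they had no settled direction.

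The regulatory subunit Ppp3r1, which every calcineurin outside the testis uses, had the largest standard error of the members, pooled over the 4 groups. In HSC alone, Ppp3cb had the larger SD in KO (0.914, against 0.773 for Ppp3r1) and Rcan1 in WT (1.06, against 0.642). It read 7.61, 9.13 and 8.56 in HSC and 7.35, 9.57 and 9.21 in MPP of KO mice 2, 11 and 70. In WT mice 3, 12 and 64 it read 8.08, 9.25 and 9.13 in HSC and 7.69, 8.93 and 9.36 in MPP. Mouse 2 and mouse 3, 1 of each genotype, were thus lowest in both populations, and the other 4 mice lay between 8.56 and 9.57. The genotype difference was -0.39 (SE 0.64) in HSC and 0.05 (SE 0.64) in MPP, with intervals of -1.79 to 1.02 and -1.36 to 1.45. The labels name nothing that mice 2 and 3 share, and the cause was not tested.

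Rcan1 read 6.43, 6.13 and 6.81 in HSC of KO mice 2, 11 and 70, against 7.63, 6.10 and 5.59 in WT mice 3, 12 and 64. In MPP it read 6.51, 6.13 and 7.17 in KO, against 6.09, 6.10 and 6.32 in WT. The HSC spread in WT was that of mouse 3 above and mouse 64 below, and in MPP KO mouse 11 lay within the WT range. The differences were 0.02 (95% interval -0.98 to 1.01) in HSC and 0.44 (95% interval -0.56 to 1.43) in MPP. The feedback gene of the pathway thus gave no difference beyond the spread between mice, within these intervals.

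When the HSC and MPP values of each mouse were averaged, the groups of 1 of 9 members did not overlap, against 8.69% of all genes. No member passed, nor did any gene, and 1 of 9 members had an unadjusted p under 0.05, against 4.45% of all genes. This was Nfatc3, at 8.05, 8.39 and 8.54 in KO mice 2, 11 and 70, against 8.54, 9.10 and 8.93 in WT mice 3, 12 and 64. KO mouse 70 (8.535) and WT mouse 3 (8.545) were nearly level. The difference was -0.53 (SE 0.20, 95% interval -0.998 to -0.07, adjusted p = 0.9999 by limma). The interaction set the genotype difference in HSC against that in MPP. No member and no other gene passed, and 1 of 9 members had an unadjusted p under 0.05, against 4.5% of all genes. Nfatc3 had the largest, at 0.94 (SE 0.41, 95% interval 0.02 to 1.85, adjusted p = 0.9996), and Ppp3cc followed at -0.82 (SE 0.49), where a value above 0 says that KO minus WT was higher in HSC than in MPP.

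The means of 3 marker lists named for other cells did not overlap between KO and WT MPP, which was not tested. Those of B cell, T and NK cell, neutrophil, monocyte and macrophage, and megakaryocyte and platelet markers overlapped there. Among single genes, 9.49% of those tested did not overlap in that comparison. The mean of mast cell and basophil markers was 5.99 to 6.29 in KO and 5.54 to 5.86 in WT MPP, and that of erythroid markers 6.29 to 6.80 in KO and 6.19 to 6.27 in WT. The mean of endothelial and stromal markers was 5.38 to 5.47 in KO and 5.57 to 5.73 in WT MPP. Of these lists 6 of 6, 3 of 6 and 6 of 6 genes were measured, and the mast cell marker Ms4a2 and the endothelial markers Cdh5, Kdr and Lepr lay under the filter value of 4.96 by their mean over all arrays. All 6 mast cell and basophil markers had the higher group mean in KO MPP, from Gata2 at 6.40 in KO and 6.39 in WT to Mcpt8 at 7.83 in KO and 6.71 in WT. The erythroid and endothelial lists went both ways, with Klf1 at 6.18 in KO and 6.21 in WT beside Alas2 at 7.34 and 6.69. In the endothelial list Cxcl12 stood at 6.20 in KO and 6.15 in WT beside Emcn at 6.60 and 7.87, which differed most of that list. Emcn also averaged 7.88 in KO and 7.74 in WT HSC, and Gata2 7.79 and 7.78. Neither can thus be taken as a marker of other cells alone. In HSC the mean of the MPP markers, 4 of 5 measured, did not overlap between genotypes, at 7.78, 7.74 and 8.27 in KO mice 2, 11 and 70, against 7.56, 7.57 and 7.66 in WT mice 3, 12 and 64. Of these, Flt3 averaged 5.97 in KO and 5.13 in WT HSC, and Cd34 9.71 in KO and 9.08 in WT HSC. Kit was nearly level, at 10.52 in KO and 10.45 in WT HSC. Cd48, on which the cells were sorted, went the other way, at 5.52 in KO and 5.74 in WT HSC. Among single genes, 8.87% of those tested did not overlap between KO and WT HSC. Neutrophil markers, 8 of 8 measured, spread from 5.64 to 7.96 in KO and 5.94 to 8.22 in WT HSC. The part of these cells in the values above was not tested.

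**Figure D2:**
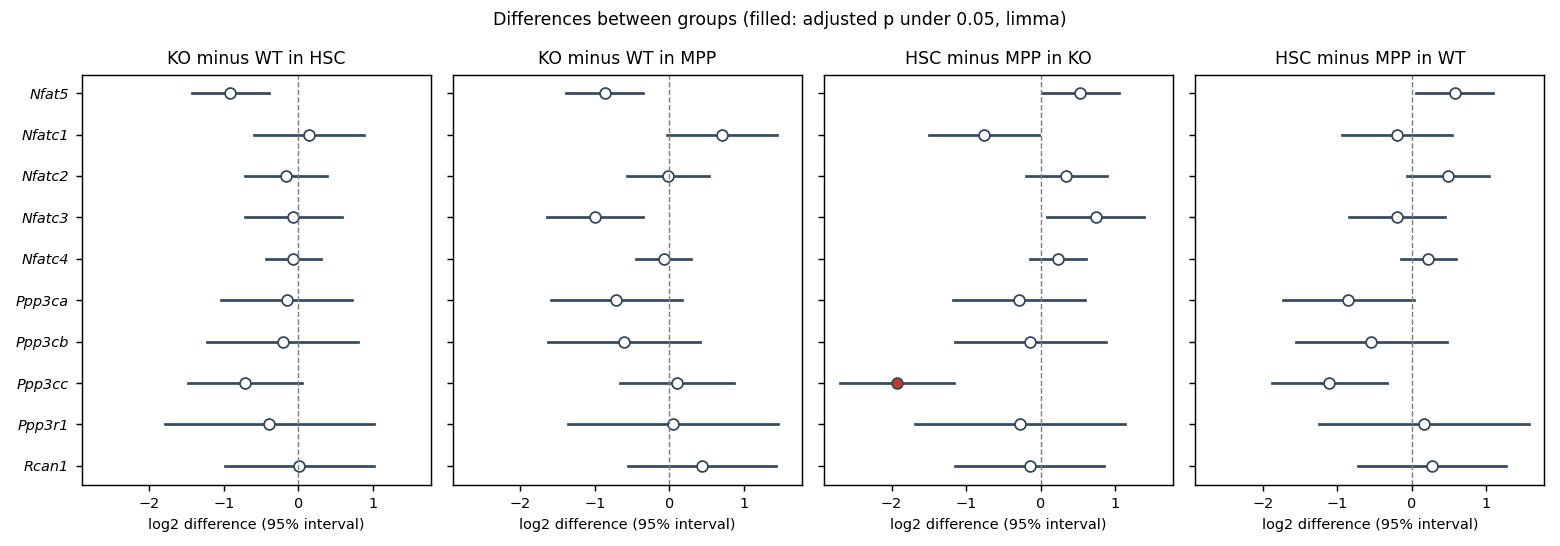
Log2 differences between groups with 95% intervals by limma for Nfat5 and the 9 members in 4 comparisons, filled where the adjusted p was under 0.05. Only Ppp3cc in HSC minus MPP of KO mice (-1.93) is filled, and Ppp3cc in WT mice stands at -1.11.

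The comparison of HSC with MPP asked how the pathway's transcripts differ between stem cells and their progeny. Ppp3cc, which encodes the gamma catalytic subunit known chiefly from testis, was the only member to pass. It did so in KO mice and not in WT mice, and not under every alternative, as given below. In KO mice it read 6.54, 5.35 and 5.20 in HSC of mice 2, 11 and 70, against 7.44, 7.87 and 7.56 in their MPP. In WT mice it read 6.06, 6.29 and 6.89 in HSC of mice 3, 12 and 64, against 7.38, 7.29 and 7.89 in their MPP. All 6 HSC arrays lay below all 6 MPP arrays, which was so for 2.36% of all genes tested.

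In KO mice the HSC signal of Ppp3cc stood at 26.3% of that in MPP, a log2 difference of -1.93 (SE 0.35, 95% interval -2.69 to -1.16, adjusted p = 0.0245 by limma). In WT mice it stood at 46.4%, a difference of -1.11 (SE 0.35, 95% interval -1.88 to -0.34) that did not pass (adjusted p = 0.171). It was 1 of 9 members to pass in KO, where 1.26% of all genes did and 0.739% were lower in HSC, and 0 of 9 passed in WT, where 2.07% did. The difference between the genotypes is the interaction of -0.82 given above (95% interval -1.91 to 0.27), which did not pass. With the mouse as a block the call in KO was lost (adjusted p = 0.0629). It was also lost with only the arrays compared (adjusted p = 0.114) and without mouse 11 (-1.63, adjusted p = 0.205), 70 (-1.71, adjusted p = 0.147), 3 (adjusted p = 0.0529) or 12 (adjusted p = 0.0620), while without the HSC array of KO mouse 2 that of WT was gained (adjusted p = 0.0490).

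Within mice, the HSC minus MPP difference of Ppp3cc was -0.90, -2.52 and -2.36 in KO mice 2, 11 and 70, and -1.33, -1.001 and -0.99 in WT mice 3, 12 and 64. It was below 0 in 6 of 6 mice, as for 6.19% of all genes tested. The 2 most negative values were those of KO mice 11 and 70, whereas KO mouse 2 was close to the WT mice. In bulk RNA of sorted cells, fewer cells that make a transcript and less of it per cell cannot be told apart. Markers of B cells, 5 of 6 measured, had means of 5.497 to 5.94 on HSC and 6.19 to 6.81 on MPP arrays, with Ms4a1 under the filter value in each group. Among them Pax5 averaged 5.42 in HSC and 5.25 in MPP of WT mice, and 5.09 and 5.68 in KO mice. Markers of monocytes and macrophages, 5 of 6 measured, had means of 5.26 to 5.92 on HSC and 6.25 to 6.85 on MPP arrays. Among them Fcgr1 went the other way, at 6.76 in HSC and 6.46 in MPP of KO mice, and 6.36 and 6.21 in WT mice. Adgre1 was nearly level, at 4.95 and 5.06 in KO and 4.95 and 4.93 in WT mice. Markers of megakaryocytes and platelets, 5 of 6 measured, ran the other way, with means of 7.31 to 7.54 on HSC and 6.45 to 7.21 on MPP arrays. Of that list Ppbp was lower in HSC than in MPP of WT mice, at 5.59 and 5.81. In KO mice the HSC arrays also held the higher MPP marker means given above, with Cd48 going the other way. The part of these cells in the Ppp3cc difference was not tested.

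**Figure D3:**
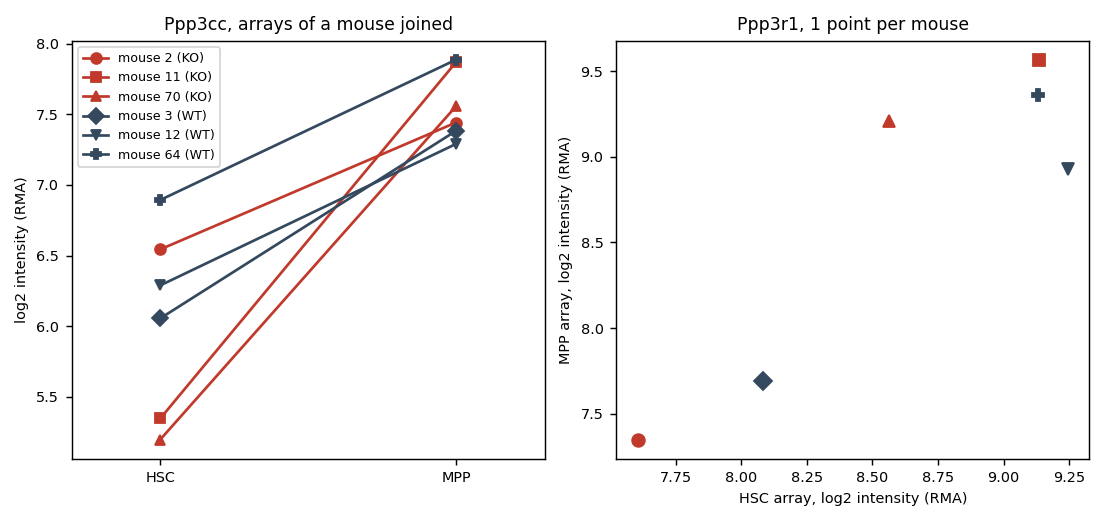
Left, log2 intensity of Ppp3cc in HSC and MPP, with the arrays of each of 6 mice joined by a line, and right, log2 intensity of Ppp3r1 on the HSC array against the MPP array of each mouse. Every Ppp3cc line rises towards MPP, and mice 2 and 3 hold the lowest Ppp3r1 on both axes.

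By the rule for likeness, the 3 genes whose values followed Ppp3cc most closely over all 12 arrays were Wfdc17, Serpinb1a and Vpreb1, with Pearson correlations of 0.942, 0.924 and 0.924. All arrays share the step between HSC and MPP, which carries much of such a value. In deviations from the group means the correlations were 0.868 for the antimicrobial Wfdc17, 0.881 for the serine protease inhibitor Serpinb1a and 0.593 for Vpreb1, a surrogate light chain of early B cells. The genes were picked for their correlation over these same 12 arrays, so these values describe the pick and test nothing. Serpinb1a averaged 8.45 ± 0.40 in HSC and 9.97 ± 0.20 in MPP of KO mice, and 8.42 ± 0.21 in HSC and 9.91 ± 0.22 in MPP of WT mice (SD, n = 3).

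The other catalytic subunits leaned the same way without passing. In WT mice Ppp3ca was lower in all 3 HSC arrays (8.29 to 9.42) than in all 3 MPP arrays (9.60 to 10.03), a difference of -0.85 (SE 0.40, 95% interval -1.73 to 0.03, adjusted p = 0.372). In KO mice its HSC and MPP values overlapped, and the difference was -0.29 (SE 0.40). Ppp3cb stood at -0.14 (SE 0.46) in KO and -0.54 (SE 0.46) in WT mice. Within mice Ppp3ca was lower in HSC of 5 of 6 and Ppp3cb in HSC of 4 of 6. KO mouse 70 went the other way for both, at 0.85 and 0.93.

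The transcription factors differed in which side they lay on. Nfatc2 was higher in HSC than in MPP of 6 of 6 mice, as were 7.73% of all genes tested. Its within-mouse differences were 0.70, 0.03 and 0.30 in KO mice 2, 11 and 70 and 0.41, 0.97 and 0.08 in WT mice 3, 12 and 64. The group differences, 0.35 (SE 0.25) in KO and 0.49 (SE 0.25) in WT, did not pass (adjusted p = 0.628 and 0.417), and the KO groups did not overlap. Nfatc3 stood at 0.74 (SE 0.29, adjusted p = 0.334) in KO and -0.20 (SE 0.29) in WT mice, the contrast already given as its interaction. Nfatc1 stood at -0.76 (SE 0.33, adjusted p = 0.393) in KO and -0.20 (SE 0.33) in WT mice, and Nfatc4 at 0.23 (SE 0.17) and 0.22 (SE 0.17). The 2 comparisons of HSC with MPP share no array, but the fit pooled the spread over all 12 arrays, so their tests are not independent. In each, 2 of 9 members had groups that did not overlap, against 17.1% of all genes in KO (Nfatc2 and Ppp3cc) and 21.3% in WT (Ppp3ca and Ppp3cc). Ppp3r1 stood at -0.28 (SE 0.64) in KO and 0.16 (SE 0.64) in WT mice, and Rcan1 at -0.15 (SE 0.45) and 0.27 (SE 0.45).

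Among themselves the members showed no common direction, with 20 of 36 pairs correlated above 0. Over the 12 arrays, taken as deviations from group means, Nfatc3 and Ppp3cb had the highest Pearson correlation of these pairs at 0.875 (Spearman 0.839). It was 0.882 over the HSC arrays and 0.923 over the MPP arrays, and 0.755 without the 2 arrays farthest from the median of Nfatc3. Ppp3ca and Ppp3cb followed at 0.783, and Nfatc1 and Nfatc3 had the lowest value, -0.607. Arrays that share a mouse and a joint normalization are not independent, and these values are a description of 12 arrays.

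**Figure D4:**
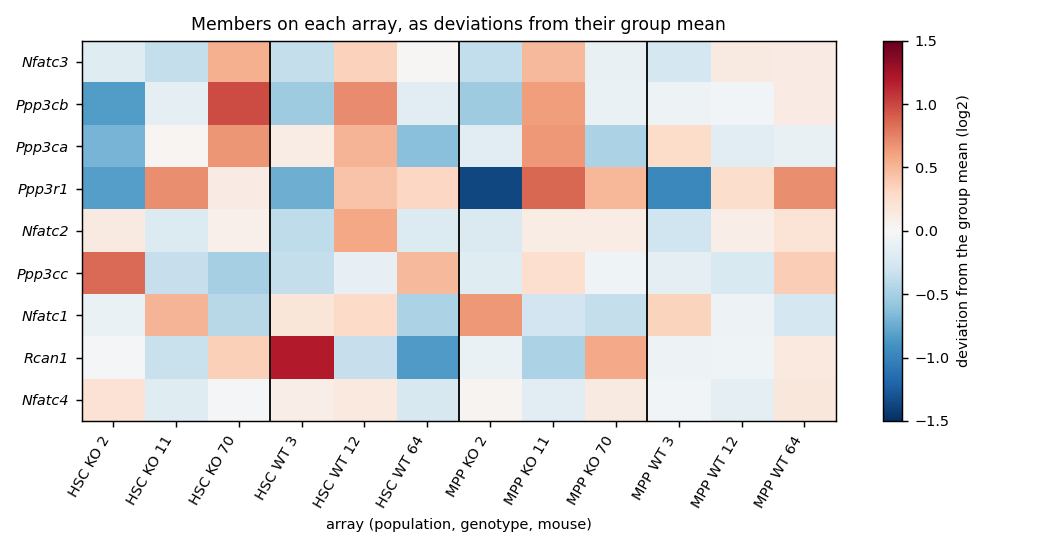
Deviation of each member from its group mean (log2, colour) on each of the 12 arrays, with lines between the 4 groups. Nfatc3, Ppp3cb and Ppp3ca are all above their group means on the HSC arrays of KO mouse 70 and WT mouse 12 and on the MPP array of KO mouse 11, and Ppp3r1 is below its mean on every array of mice 2 and 3.

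The rest of the pathway was covered by 6 lists of 90 genes, of which 84 had a named probe set and 71 were tested. None of the 71 passed in any of the 6 comparisons by limma. An unadjusted p under 0.05 was reached by 4 of them (5.63%) in KO against WT HSC, where 6.29% of all genes did so, and by 3 (4.23%) in KO against WT MPP, against 3.19% of all genes. For HSC against MPP the counts were 8 (11.3%) in KO, against 12.4% of all genes, and 13 (18.3%) in WT, against 14.1%. Median differences over the 71 genes lay between -0.01 and 0.08, against 0.00 to 0.05 over all genes.

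Upstream of calcineurin, calcium entry and calmodulin genes had 13 tested members. Calm3, 1 of the calmodulin genes, read 10.999 to 11.26 in KO HSC and 11.27 to 11.69 in KO MPP. In WT it read 10.97 to 11.24 in HSC and 11.57 to 11.60 in MPP. All HSC arrays thus lay below all MPP arrays, as for 2.36% of all genes tested. The closest were 11.261 in HSC and 11.2715 in MPP of KO mouse 70. The Calm3 difference in WT was -0.48 (SE 0.15, adjusted p = 0.175 by limma). The calcium pump Atp2a2, at -0.67 (SE 0.26), and the calcium channel subunit Orai2, at 0.50 (SE 0.19), also had WT groups that did not overlap, as did 21.3% of all genes, and these list genes were picked for their low p. Phospholipase Plcg1 stood at -1.11 (SE 0.47, adjusted p = 0.790) in KO against WT HSC, with 6.69 on the array of KO mouse 2 and 8.30 or more on the other 5 HSC arrays.

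The kinases that rephosphorylate NFAT had 8 tested members, of which 1 lay above 0 in HSC against MPP of KO mice and 2 in WT mice. Dyrk1a stood at -0.73 (SE 0.21, adjusted p = 0.138) in KO, and Dyrk2 and Csnk1a1 at -0.48 (SE 0.17) and -0.72 (SE 0.34) in WT mice. Csnk1e stood at 0.55 (SE 0.37) in KO against WT MPP. The median of the list was -0.21 in KO and -0.28 in WT mice, against 0.05 and 0.03 over all genes.

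Among 11 tested calcineurin-binding proteins and inhibitors, Fkbp1b, an FK506-binding protein of calcium release channels, stood furthest from 0. It read 4.33, 4.74 and 4.74 in HSC of KO mice 2, 11 and 70, against 6.46, 6.06 and 5.04 in WT mice 3, 12 and 64. The KO values lay under the filter value of 4.96, so the gene passed the filter through the groups where it was higher. The difference was -1.25 (SE 0.31, adjusted p = 0.551 by limma). The highest group mean was that of WT HSC, at 5.86, so the test of Fkbp1b cannot support a difference between the genotypes. Homer2, a scaffold that competes with calcineurin for NFAT, stood at 0.51 (SE 0.29) in KO against WT HSC. The anchoring protein Akap5 stood at 0.50 (SE 0.26) in HSC against MPP of KO mice, and the cyclophilin Ppia, the receptor of cyclosporin A, at -0.23 (SE 0.15) in WT mice.

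Calcineurin substrates other than NFAT, with 11 tested members, and nuclear partners of NFAT, with 14, gave no call. The muscle and lymphoid factors Mef2a and Mef2c stood at -0.57 (SE 0.19) and -0.65 (SE 0.27) in HSC against MPP of WT mice. The CREB coactivators Crtc1 and Crtc2 stood at 0.52 (SE 0.21) in KO and 0.54 (SE 0.26) in WT mice. The AP-1 proteins Batf at 0.83 (SE 0.30) in KO and Jund at 0.35 (SE 0.14) in WT lay on the HSC side, as did Maf at 0.47 (SE 0.18) in KO mice. Of the 14 partners, 11 lay above 0 in KO and 12 in WT mice, with medians of 0.20 and 0.18 against 0.05 and 0.03 over all genes. Fos stood at -1.01 (SE 0.46) in the interaction.

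Of 21 genes known as NFAT targets in lymphocytes, 14 were tested, and Il2, Il3, Ifng, Cd40lg, Il2ra, Nr4a3 and Ctla4 lay under the filter. Tox, a chromatin factor of lymphocyte development and exhaustion, averaged 9.59, 9.90 and 9.57 over both populations of KO mice 2, 11 and 70, against 10.39, 10.43 and 10.09 in WT mice 3, 12 and 64. All KO mice lay below all WT mice, a difference of -0.62 (SE 0.15) whose adjusted p was 0.9999. The costimulator Icos read 6.16 to 6.33 in KO and 6.74 to 7.17 in WT MPP, a difference of -0.70 (SE 0.15, adjusted p = 0.9999). Il4 stood at 1.85 (SE 0.46, adjusted p = 0.0802) in HSC against MPP of WT mice, whose MPP arrays, at 3.77 to 4.09, lay under the filter value. It passed the filter only through the HSC groups, at 6.14 in KO and 5.83 in WT, against 4.81 and 3.97 in MPP. Without KO mouse 2 it passed the test (adjusted p = 0.0404 by limma). No WT array was then left out, and the difference stayed at 1.85. The test of Il4 thus cannot support a difference between the populations. The cyclin Ccna2 stood at -0.67 (SE 0.20, adjusted p = 0.165) in HSC against MPP of KO mice.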

How the data were processed

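RNA of sorted cells (300 pg per sample, amplified and biotin-labelled, per the labels' protocols) was hybridised to 12 one-colour arrays, 1 for each mouse and population. The authors deposited log2 intensity values per probe set, normalized with RMA and analysed with limma per the submitters' processing notes, versions not given in the sources used here. Of 22142 probe sets, 19527 had 1 gene symbol in the platform annotation, 0 had several and 2615 had none. For the 33 genes with several, the probe set with the highest mean was kept. Of 19494 genes, the 25% with the lowest mean over all arrays (4874 genes, under 4.96) were left out and 14620 were tested.

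All 4 groups were fitted together with limma 3.58.1 in R 4.3.3 (statmod 1.5.0) without a mouse term, and p-values were adjusted by Benjamini-Hochberg over all tested genes, with a threshold of 0.05 and 95% intervals. KO against WT over both populations was fitted on the mean of each mouse. The number of arrays limits the precision. The labels tie the HSC and MPP arrays of each mouse, so the numbers pair the samples. Over all genes, the deviations of the 2 arrays of a mouse correlated at 0.0323 to 0.0905. Each HSC array was compared only with the MPP arrays of the 3 mice of its genotype. Of the mice, 5 of 6 matched best with their own partner. The steps were tested on simulated data.

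The members and gene lists were chosen with earlier results of these data known. Named genes are Nfat5, the members, up to 4 genes of each list with the lowest unadjusted p over the 6 comparisons, and the 3 genes most correlated with the member of lowest p in HSC against MPP of WT mice. Alternatives changed the filter, the probe set rule, the normalization, the moderation, the weights, the arrays in the fit, the mouse block and the mice included. Rcan3 had no probe set named for it, and promoters are shown for Rcan1, Nfatc3 and Ppp3cb only.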

Additional observations from a re-analysis of the deposited data

How the results depend on the processing

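With 3 arrays a group, the signs of small member differences were not settled. The Ppp3cc call in HSC against MPP of KO mice held in 9 of 15 alternatives, so the number of members that passed ranged from 0 to 1. These 9 are not all separate checks. Averaging probe sets cannot change Ppp3cc, which has 1, and other filters changed only the genes tested beside it. The 9 also include the alternative named below as chosen after seeing the data. With a mouse left out the difference was -2.44 to -1.63, and the call was lost without mouse 11, 70, 3 or 12. The number of members that passed was 0 when the fit held no other arrays, and 0 under the replicate block, with the mouse as a fixed block. Over all genes that comparison had 184 calls, against 79 with only the arrays compared, 113 with the block and 57 to 168 without 1 mouse. In WT mice the 302 calls became 180 with the block and 70 to 297 without 1 mouse. The calls in KO against WT HSC were 0 to 1 without 1 mouse, the 1 being without mouse 11. The block changed no other call of a member. An alternative without the HSC array of KO mouse 2 was chosen after seeing the data. It gave 106 calls in HSC against MPP of KO mice and 1 member that passed in WT mice. There, KO against WT in HSC turned to 0.0258 for Nfatc3, 0.195 for Ppp3ca, 0.211 for Ppp3cb and 0.0281 for Ppp3r1. HSC against MPP in KO mice turned to 0.0585 for Ppp3ca, 0.28 for Ppp3cb and 0.14 for Ppp3r1, the interaction of Nfatc4 to -0.0933, and both populations together to 0.38 for Ppp3r1. Array weights turned KO against WT in HSC to 0.00319 for Ppp3ca, 0.00422 for Ppp3cb and -0.051 for Rcan1, and HSC against MPP of WT mice to -0.10 for Ppp3r1. The cause was not tested.

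Leaving out 1 mouse turned further signs, none of a passed result. In KO against WT HSC the ranges were -0.11 to 0.36 for Nfatc1, -0.35 to 0.13 for Nfatc2, -0.33 to 0.11 for Nfatc3, -0.18 to 0.028 for Nfatc4, -0.49 to 0.195 for Ppp3ca, -0.69 to 0.21 for Ppp3cb, -0.76 to 0.0281 for Ppp3r1 and -0.41 to 0.61 for Rcan1. In KO against WT MPP they were -0.17 to 0.0886 for Nfatc2, -0.15 to 0.0083 for Nfatc4, -0.0205 to 0.29 for Ppp3cc and -0.44 to 0.73 for Ppp3r1. In HSC against MPP they were -0.37 to 0.77 for Rcan1 in WT mice, and -0.86 to 0.0158 for Ppp3ca and -0.68 to 0.25 for Ppp3cb in KO mice. In the interaction they were -0.34 to 0.28 for Nfat5, -0.35 to 0.10 for Nfatc2, -0.19 to 0.15 for Nfatc4, -0.0093 to 0.90 for Ppp3ca, -0.13 to 0.79 for Ppp3cb and -0.92 to 0.22 for Rcan1. Over both populations they were -0.26 to 0.0776 for Nfatc2, -0.13 to 0.0182 for Nfatc4, -0.60 to 0.38 for Ppp3r1 and -0.0048 to 0.50 for Rcan1. Each of the 24 named list genes was followed only in the comparison where its p was lowest. Of those 353 values under the alternatives, 352 kept their direction and side of the threshold, the exception being Il4 without mouse 2. As genes and comparisons were picked for low p and none passed in the main fit, this count was largely fixed in advance.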

Other observations

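Rcan2, a relative of Rcan1 that also binds calcineurin, lay under the filter and was not tested. It read 5.92, 4.26 and 6.95 in HSC of KO mice 2, 11 and 70, against 4.61, 4.41 and 4.56 in HSC of WT mice 3, 12 and 64, and 4.08 to 4.56 on the MPP arrays. KO mice 2 and 70 stood above the other 10 arrays.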
